A study of Mus musculus with 9 samples.

Results

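The regions described here are 325 XBP1 binding regions of mouse liver that carried a peak in every unsilenced library and none in a library in which XBP1 had been silenced. They were found by merging the peaks of 5 unsilenced libraries that overlapped by 1 bp or more, which gave 28099 regions. A peak in all 5 lists was present at 1859 of these (6.62%), called constitutive below. Members were chosen by the peak calls themselves: of the 1859 constitutive regions, 325 (17.5%, Clopper-Pearson 95% interval 15.8 to 19.3%) overlapped no peak of the silenced liver 6 h after hepatectomy. They are called lost, and the other 1534 are called kept. Over all 28099 merged regions, 85.1% had no silenced peak. That count belongs to the rule and is given as a description.

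XBP1 is a basic leucine zipper transcription factor of the unfolded protein response. The endoplasmic reticulum sensor IRE1 splices its messenger RNA when unfolded protein accumulates, and the spliced form encodes the active factor. In secretory cells such as hepatocytes it is known for driving genes of protein folding, transport into the endoplasmic reticulum, degradation and lipid synthesis. Partial hepatectomy removes part of the liver and starts regrowth of the rest, and a sham operation opens the abdomen without removing tissue.

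All animals were wildtype mice of strain C57Bl6-J, and the tissue was liver. The 5 unsilenced livers were basal, 6 h and 48 h after partial hepatectomy, and 6 h and 48 h after sham operation. Operated animals were 8 weeks old at surgery, and the age of the basal animals is not given in the sources used here. In the silenced livers an adenovirus expressing a hairpin RNA against XBP1 (shXBP1) had been injected into the tail vein 7 days earlier, after clodronate liposomes, which deplete macrophages. One such liver was basal, 1 was taken 6 h and 1 was taken 48 h after hepatectomy. The labels do not state which livers received the control virus (a hairpin against LacZ), nor whether a library came from 1 animal. Whether the unsilenced livers received clodronate is not stated either. The hairpin, the virus and clodronate therefore cannot be told apart as sources of a difference between silenced and unsilenced libraries. Every library used the same antibody to XBP1, M-186. How much XBP1 was left after silencing is not given in the sources used here, and the peak lists do not measure it. There was 1 library per condition, so the values below describe single libraries without a measured spread, no p-value was computed, and intervals cover counting error only.

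The lists differed greatly in length, which touches every call of a lost region. The unsilenced lists held between 2482 peaks (basal liver) and 23087 peaks (6 h after sham operation). The silenced list 6 h after hepatectomy held 4325 peaks, and the silenced basal and 48 h lists held 177 and 102 peaks. Sequencing depth is not given in the sources used here for any library. Whether a shallower silenced library accounts for a missing call was not tested. The reference tables at hand use another genome build than the peaks, so sites are named by their mm9 coordinates, and neither genes nor sequences are given. For the same reason the tissue label was not checked against marker genes.

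The lost regions were compact sites with single peaks. Together they covered 246.7 kb on 20 chromosomes. The median region was 683 bp wide (range 369 to 1877 bp), against 866.5 bp for the kept regions. In 294 of the 325 (90.5%) every unsilenced list had exactly 1 peak in the region, as it had in 86.6% of the kept regions. The peaks lay on the same spot in most cases. In 316 of 325 (97.2%, 94.8 to 98.7%) the highest-scoring peaks of the 5 lists shared a common stretch, with a median of 242 bp over all 325. Their midpoints spread over a median of 111 bp. For the kept regions the common stretch was present in 98.0% and the midpoints spread over 120 bp. Requiring such a stretch left 316 lost regions among 1820.

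Peak scores, deposited by the authors and taken from their values as −log10 of a p-value, had lower medians at lost than at kept regions in all 5 unsilenced libraries. Scores are comparable within a library only. 6 h after hepatectomy the lost regions had a median score of 46.07 (range 10.69 to 246.51) and the kept regions 134.54 (13.84 to 828.25). The rule used each of the 5 unsilenced libraries in the same way, for the presence of a peak. In the 6 h sham library the medians were 39.61 and 72.88. The full ranges overlapped in each library. The middle 50% of both sets also overlapped, except at 6 h after hepatectomy, where it ran from 29.52 to 70.28 for lost and from 80.39 to 222.12 for kept regions.

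The same order was present in the less extensive lists. In basal liver the median score was 12.21 at lost and 17.39 at kept regions. At 48 h after hepatectomy it was 16.22 against 25.03. At 48 h after sham operation it was 15.75 against 29.17. The lowest scores of the lost regions lay near the floor of the lists, at 5.08 in basal liver, which is also the lowest score of that list. A score of at least 10 in every unsilenced list was reached by 203 of the 325 lost regions (62.5%, 56.9 to 67.7%) and by 84.1% of the kept ones (82.2 to 85.9%).

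**Figure D1:**
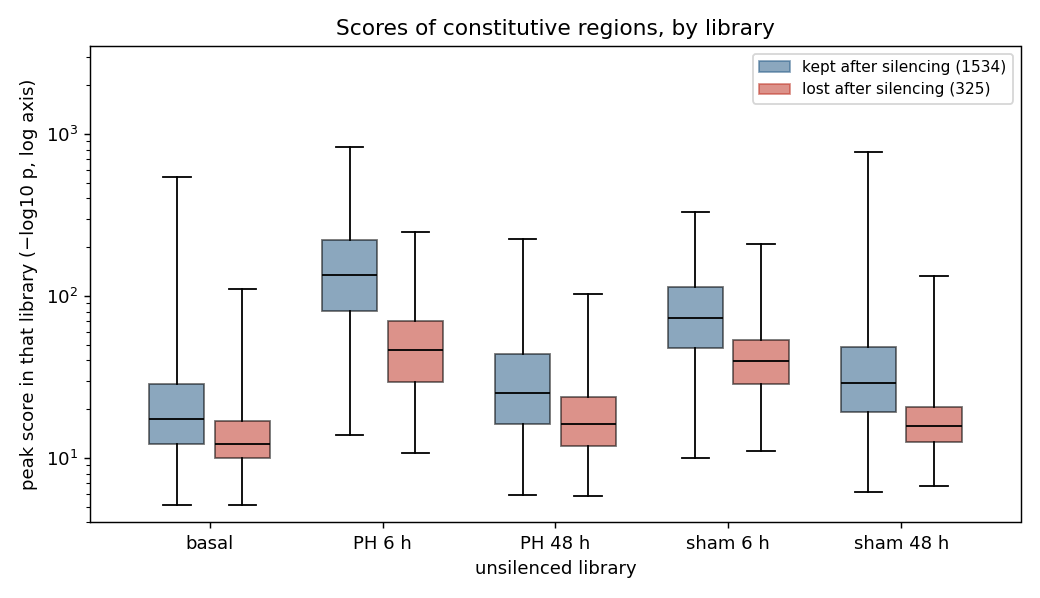
Peak scores (read as −log10 p, log axis) of the 1534 kept and 325 lost constitutive regions in the 5 unsilenced libraries (PH, partial hepatectomy). Boxes span the quartiles with the median as a line, and whiskers reach the lowest and highest region. The lost regions have the lower median in every library, for example 46.07 against 134.54 at 6 h after hepatectomy, with overlapping ranges.

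Ranking the 1859 constitutive regions against each other in 1 library gives each region a standing, the percentage of the 1859 with an equal or lower score. It refers to the same 1859 regions in each library. The median standing of the lost regions was 15.1 at 6 h after hepatectomy, 21.0 at 48 h after sham operation and 22.3 at 6 h after sham operation. It was 30.3 at 48 h after hepatectomy and 30.7 in basal liver. Their median standing was thus lowest in the unsilenced library of the same time and operation as the silenced one. The rule chose members by the silenced list of that same time and operation, so this order is not independent of the rule. In all 5 libraries at once, 175 lost regions (53.8%) stood at or below 50, against 17.1% of the kept ones, and 11 (3.38%) stood above 50, against 32.7%.

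Hepatectomy and sham libraries placed the lost regions differently at both times. At 6 h, 213 of the 325 (65.5%) stood higher in the sham library than after hepatectomy and 111 (34.2%) stood lower. At 48 h, the sides were turned: 199 (61.2%) stood higher after hepatectomy and 126 (38.8%) after sham operation. Among the kept regions 54.6% stood higher after hepatectomy at 6 h and 46.4% at 48 h. Basal liver also placed 233 of the 325 lost regions (71.7%) higher than the library 6 h after hepatectomy did, and 92 lower. The rule used the silenced list 6 h after hepatectomy, so the 6 h comparison is not independent of the rule. Loss also followed the 6 h hepatectomy score, which was correlated with both 48 h scores. The 48 h comparison is therefore not independent of the rule either. Lost and kept regions are ranked together, so the shares of the kept regions are no separate comparison. The difference between operations was not tested with 1 library each.

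Scores of the lost regions varied loosely from library to library. Across the 325 regions Spearman's rho between the scores of 2 libraries ran from 0.25 (basal and 6 h after hepatectomy) to 0.60 (6 h sham and 48 h hepatectomy). Across the 1534 kept regions it ran from 0.64 to 0.80. The lost regions covered a narrower range of scores, and all libraries share the antibody and the peak caller, so these values only describe the lists.

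Loss followed the score 6 h after hepatectomy closely. Of the constitutive regions with a score from 5 to below 20 in that library, 34 of 39 were lost (87.2%, 72.6 to 95.7%). From 40 to below 60 it was 83 of 209 (39.7%, 33.0 to 46.7%). From 100 to below 140 it was 18 of 270 (6.67%, 4.00 to 10.3%), and at 200 or more it was 3 of 462 (0.649%, 0.134 to 1.89%). The lost regions were therefore concentrated among weaker constitutive sites, and 12 of the 325 were among the upper 40% of constitutive regions by this score. By quintile of the score, from lowest to highest, 199, 77, 37, 11 and 1 regions were lost.

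In each score range up to 200, regions in all 5 unsilenced lists lacked a silenced peak less often than regions in fewer lists. This contrast was not tested. The ranges are wide, and scores within a range were not matched between these sets. For example, the lowest score of a constitutive region was 10.69, while the whole 6 h hepatectomy list began at 5.27. In the range from 20 to below 40, 97 of 176 constitutive regions were lost (55.1%, 47.5 to 62.6%). There, 389 of 536 regions with a peak in 4 lists had no silenced peak (72.6%, 68.6 to 76.3%), and 4270 of 4845 with a peak in 3 or fewer (88.1%, 87.2 to 89.0%). In the range from 60 to below 80 the shares were 22.4%, 30.6% and 48.0%. All of these regions had a peak 6 h after hepatectomy. The intervals of regions in all 5 lists and in 3 or fewer did not overlap in the 4 ranges below 80 and overlapped in the 4 ranges above. Those of regions in 5 and in 4 lists overlapped in 7 of the 8 ranges, all but that from 20 to below 40.

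**Figure D2:**
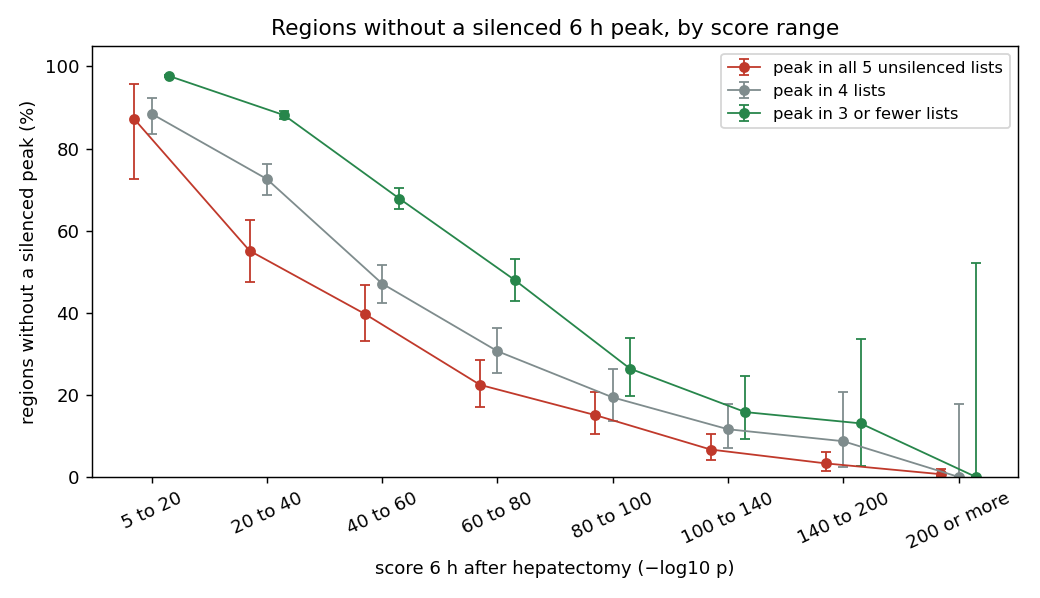
Percentage of regions without a silenced 6 h peak (y axis) in 8 ranges of the score 6 h after hepatectomy (x axis), for regions with that peak that were found in all 5, in 4, or in 3 or fewer unsilenced lists. Bars are Clopper-Pearson 95% intervals. The percentage for regions in all 5 lists is 87.2% in the lowest range and 0.649% in the highest.

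The number of lists a region belonged to ordered the shares over all merged regions as well. Unlike the shares above, these include regions without a 6 h hepatectomy peak, and they are not split by score. No silenced peak was found at 98.6% of the regions in 1 unsilenced list, 92.9% in 2 lists, 76.2% in 3 lists, 50.1% in 4 lists and 17.5% in all 5. The regions in 4 lists were mostly those without a basal peak, and 702 of these 1443 had no silenced peak (48.6%). The basal library therefore decides the number of lost regions more than any other. Without it, 1027 of 3302 regions (31.1%) with a peak in the 4 other lists were lost. Without the 48 h sham library there were 488 of 2146.

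Within a quintile of the 6 h hepatectomy score, the other libraries separated lost from kept regions only weakly. In the second lowest quintile, 50 of the 188 regions at or below that quintile's median score 48 h after sham operation were lost (26.6%, 20.4 to 33.5%), against 27 of the 184 above it (14.7%, 9.90 to 20.6%). Those intervals overlap slightly. The corresponding split by basal score gave 24.0% and 16.7%, that by the 48 h hepatectomy score 19.6% and 21.9%, and that by the 6 h sham score 20.3% and 21.1%. In the lowest quintile, the share at or below the median was higher than that above it in all 4 libraries, by between 5.56 and 10.9 percentage points, with overlapping intervals.

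The kept regions show how near to the floor a silenced peak was at a given score. In the lowest quintile, 172 kept regions had a median score of 12.04 in the silenced library, and the lowest was 5.95. The lowest score of the whole silenced list was 5.27. In the highest quintile the median silenced score of the kept regions was 57.41. A silenced signal just under the threshold of the caller at a lost region cannot be seen in a list of peaks.

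**Figure D3:**
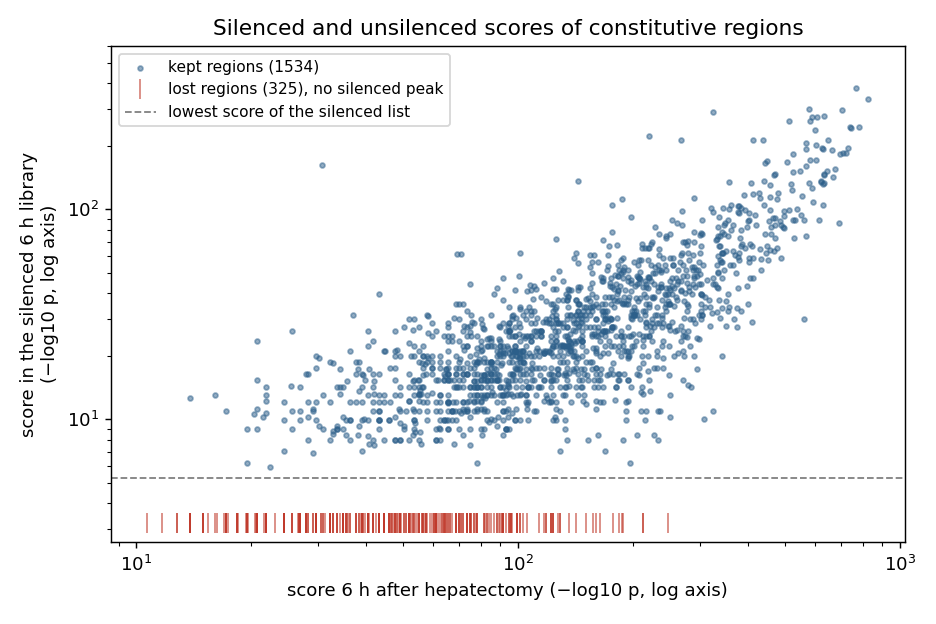
Score in the silenced 6 h library against the score 6 h after hepatectomy (both read as −log10 p, log axes). Each point is 1 of the 1534 kept regions, each red tick marks the score of 1 of the 325 lost regions, which have no silenced score, and the dashed line is the lowest score of the silenced list, 5.27. Of the ticks, 199 lie in the lowest quintile by score 6 h after hepatectomy, where the kept regions had a median silenced score of 12.04.

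The silenced basal and 48 h libraries were not used by the rule. Of the 325 lost regions, 1 overlapped a silenced basal peak (0.308%, 0.00779 to 1.70%), against 114 of the 1534 kept regions (7.43%, 6.17 to 8.86%) and 0.424% of all merged regions. None overlapped a silenced 48 h peak: 0 of 325 allows a share of up to 0.923% by the limit of 3 counts, and the Clopper-Pearson interval reaches 1.13%. Among the kept regions it was 64 (4.17%, 3.23 to 5.30%), and over all merged regions 0.249%. Of the 119 merged regions with a silenced basal peak, 114 were kept regions. Of the 70 with a silenced 48 h peak, 64 were kept regions. The shares over all merged regions thus came mostly from the kept regions and are no separate background for the lost ones.

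Nearly all of the contrast between lost and kept regions came from the strongest sites, where few lost regions exist. In the highest quintile by 6 h hepatectomy score, 104 of 371 kept regions had a silenced basal peak (28.0%) and 61 a silenced 48 h peak (16.4%). In the 4 lower quintiles the kept regions had 0 of 172, 2 of 295, 2 of 335 and 6 of 361 silenced basal peaks, and 0, 1, 1 and 1 silenced 48 h peaks. With 324 of the 325 lost regions in these 4 quintiles, these short lists held too few peaks to show a difference between lost and kept regions there.

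The lost region with the highest score 6 h after hepatectomy lay on chromosome 4 (chr4:95633585-95634719, mm9, 1-based). Its scores were 39.92 in basal liver, 246.51 at 6 h and 36.56 at 48 h after hepatectomy, and 134.38 at 6 h and 93.83 at 48 h after sham operation. It was the only lost region in the highest quintile, at rank 328 of the 6 h hepatectomy list. The nearest silenced 6 h peak was 422906 bp away. Its 6 h hepatectomy list had 2 peaks within the region.

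The second region, on chromosome 6 (chr6:108777961-108778821), was the exception in several respects. It scored 109.86 in basal liver, 213.1 and 100.31 at 6 h and 48 h after hepatectomy, and 209.71 and 133.63 at 6 h and 48 h after sham operation. It had the highest basal, 6 h sham and 48 h sham score of the 325, and its standing among the 1859 constitutive regions was between 77.6 and 96.1 in the 5 libraries. It was also the 1 lost region with a peak in another silenced list, a silenced basal peak of 60 bp (108778215 to 108778274) with a score of 9.32. The nearest silenced 6 h peak lay 43259 bp away. Counting that basal peak as a counterpart left 324 lost regions.

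The third region was also on chromosome 6 (chr6:118428738-118429775), with 213.07 at 6 h and 35.1 at 48 h after hepatectomy. It had 24.5 in basal liver and 127.22 and 30.47 at 6 h and 48 h after sham operation. The region on chromosome 17 (chr17:34986864-34987655) scored 24.5 in basal liver, 188.09 and 51.81 after hepatectomy, and 87.56 and 51.38 after sham operation, in each case 6 h before 48 h. Both stood above 60 in all 5 libraries. The chromosome 17 region had a kept constitutive region 12521 bp away and a silenced peak 11932 bp away.

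The following pair differed in how even they were. The region on chromosome 7 (chr7:50834606-50835450) scored 187.18 and 39.27 after hepatectomy and 109.04 and 32.86 after sham operation, but only 8.94 in basal liver. Its standing was 7.10 in basal liver and between 63.1 and 77.3 in the other 4 libraries. The region on chromosome 13 (chr13:34965763-34966534) scored 39.92 in basal liver, 184.29 and 74.77 after hepatectomy, and 125.44 and 27.88 after sham operation. Its standing was highest at 48 h after hepatectomy, at 90.3, and lowest at 48 h after sham operation, at 55.4.

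Another 3 regions had the lowest standings of the highest 10 in the 48 h sham library. The median standing of all lost regions in that library was 21.0. The region on chromosome 15 (chr15:79963466-79964288) scored 16.88 in basal liver, 177.92 and 23.91 after hepatectomy, and 61.77 and 18.5 after sham operation. The region on chromosome 5 (chr5:72950278-72951199) scored 11.11 in basal liver, 163.68 and 17.46 after hepatectomy, and 69.69 and 12.58 after sham operation. The second one on chromosome 13 (chr13:73741053-73742430) scored 21.14 in basal liver, 160.01 and 26.62 after hepatectomy, and 52.71 and 14.73 after sham operation. Their standings 48 h after sham operation were 31.6, 12.5 and 19.8, against 70.3, 67.0 and 66.3 at 6 h after hepatectomy.

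The tenth, on chromosome 7 (chr7:123647313-123648199), stood highest in the 6 h sham library, at 90.5 with a score of 167.32, and lowest at 6 h after hepatectomy, at 65.1. It scored 27.85 in basal liver, 157.02 and 44.16 after hepatectomy and 48.14 at 48 h after sham operation. By mean percentile of score over the 5 lists, the leading 5 lost regions were the first 2 on chromosomes 6 (108777961) and 4, that on chromosome 11 (chr11:98812672-98813308), this one and the first on chromosome 13. The chromosome 11 region scored 31.3 in basal liver, 129.19 and 102.78 after hepatectomy, and 92.57 and 45.58 after sham operation. Its score 48 h after hepatectomy was the highest of all lost regions in that library, at a standing of 94.9, while at 6 h after hepatectomy it stood at 56.8.

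**Figure D4:**
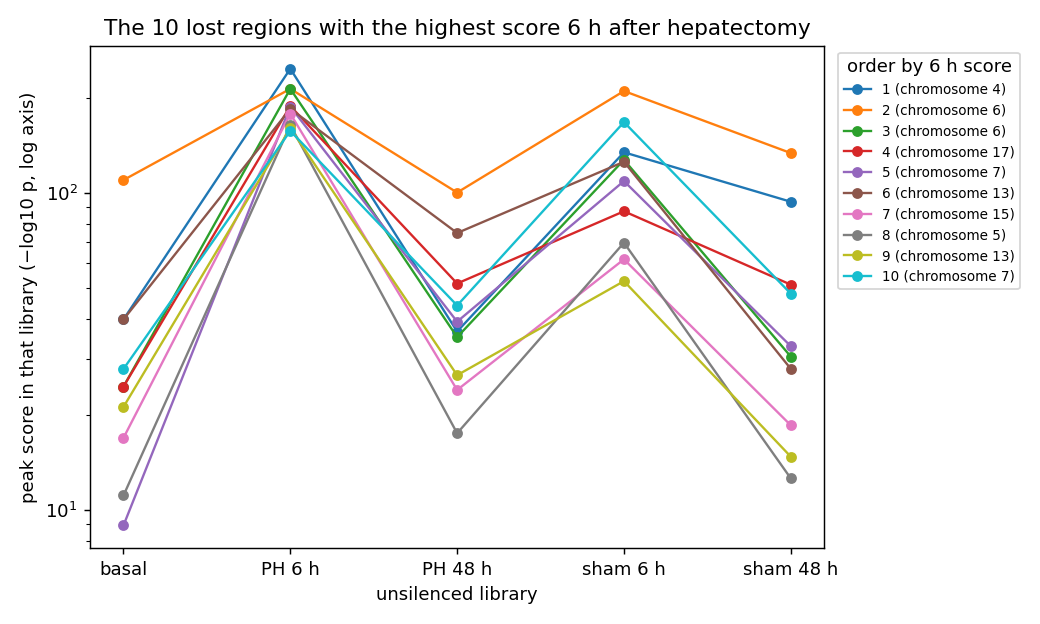
Peak scores (read as −log10 p, log axis) of the 10 lost regions with the highest score 6 h after hepatectomy, in the 5 unsilenced libraries (PH, partial hepatectomy). Each colour is 1 region, its line joins the values of that region and has no meaning between libraries, and the order of regions can be compared within a library only. The second region leads in basal liver (109.86), 48 h after hepatectomy (100.31) and both sham libraries (209.71 and 133.63).

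The highest-scoring kept regions give the other end of the scale. The first, on chromosome 10 (chr10:86166969-86169353), scored 828.25 at 6 h after hepatectomy and 336.5 in the silenced library of that time. The next, on chromosome 2 (chr2:143990559-143992434), scored 780.16 and 247.72. The third, on chromosome 2 (chr2:34626722-34628400), had 768.2 and 377.07, the highest score of the silenced list. Those on chromosomes 3 (chr3:95754314-95755491) and 19 (chr19:60866123-60867412) had 744.37 and 739.62 unsilenced, and 243.71 and 247.72 silenced. Unsilenced and silenced scores come from different libraries and are not comparable in size. Each of these 5 regions also had a peak in the other silenced lists. None of the lost regions had one in both.

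Among the lost regions, the lowest score 6 h after hepatectomy was 10.69, on chromosome 13 (chr13:4034249-4034772), where the 6 h sham score was 34.08 and the basal score 11.11. The next, on chromosome 11 (chr11:83369791-83370237), had 11.72, with 17.55 at 6 h after sham operation. Not all regions with a low score here were weak throughout. A region on chromosome 4 (chr4:153870921-153871417) had 12.77, and stood at 52.3 at 48 h after sham operation with a score of 26.61. The region on chromosome 7 (chr7:148517874-148518248), also at 12.77, stood at 73.8 in basal liver with a score of 24.5. The fifth place was tied among 5 regions at 13.84. The one named, on chromosome 19 (chr19:10262581-10263361), scored 36.72 at 6 h after sham operation. Both 6 h libraries placed the 5 regions named here at a standing of 17.7 or less.

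The rule turns on an overlap of 1 bp, but few regions lay near that boundary. The lost region nearest to a silenced peak was on chromosome 4 (chr4:43012281-43013060), 220 bp from it, and it lay 37 bp from a kept region. The next 4 were on chromosome 11 (chr11:69484538-69485207, 699 bp), chromosome 9 (chr9:70504814-70505505, 736 bp) and chromosome 18 (chr18:80666274-80667260, 820 bp, and chr18:12801535-12802029, 1003 bp). Their scores 6 h after hepatectomy were 51.92, 94.68, 86.39, 54.9 and 16.32. On the other side of the boundary, no kept region was held by a marginal overlap. In 1524 of the 1534 (99.3%) the region held a whole silenced peak, and the shortest partial overlap was 370 bp. The shortest overlap of all, 247 bp, was the width of the narrowest silenced peak and occurred in 33 kept regions. The highest-scoring 5 of them lay on chromosome 4 (chr4:124528186-124528810), chromosome 14 (chr14:45938300-45938838), chromosome 7 (chr7:13506843-13507836), chromosome 9 (chr9:25059266-25060312) and chromosome 19 (chr19:48008881-48009771). Their silenced scores were 9.97, 12.04, 8.01, 12.04 and 9.97. At 6 h after hepatectomy they scored 215.01, 191.89, 134.54, 120.38 and 98.03, which is not comparable with scores of the silenced library. Only 4 lost regions (1.23%) had a silenced peak within 1 kb, and 25 (7.69%) within 5 kb. With a gap of up to 250 bp allowed, 324 regions were lost.

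Lost regions had silenced peaks in their surroundings about as near as kept regions did. The median distance from a lost region to the nearest silenced 6 h peak was 68.6 kb (range 0.22 to 2794 kb). For the kept regions, counting only silenced peaks outside the region, it was 70.1 kb. Within 100 kb, 59.1% of the lost and 58.5% of the kept regions had such a peak. The nearest kept constitutive region lay at a median of 203 kb from a lost region. The nearest region of any kind lay at a median of 6.37 kb, against 6.06 kb for the kept regions.

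**Figure D5:**
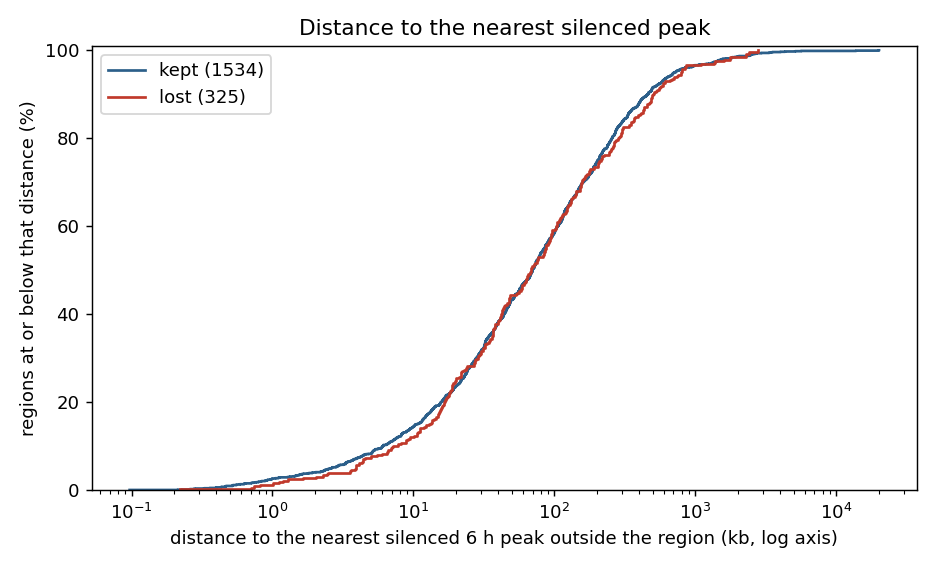
Cumulative percentage of regions (y axis) by distance to the nearest silenced 6 h peak outside the region (x axis, kb, log axis), for 325 lost and 1534 kept regions. The curves run close together, with 59.1% of the lost and 58.5% of the kept regions within 100 kb.

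Lost regions were spread over all chromosomes with constitutive regions. The share of constitutive regions lost lay between 12.3% on chromosome 17 (10 of 81, 6.08 to 21.5%) and 23.3% on chromosome 5 (31 of 133, 16.4 to 31.4%). On the X chromosome it was 2 of 14. The intervals of the 20 chromosomes all overlapped, and each held the share over all constitutive regions, 17.5%. Chromosome 5 held the largest number of lost regions, followed by chromosomes 11 (29 of 159) and 7 (28 of 134).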

How the data were processed

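Liver chromatin was precipitated with an antibody to XBP1 and sequenced in 8 libraries, 1 per condition, and each has a deposited list of peaks. A basal input sample was not analysed here. Bowtie2, MACS 1.4.2 and build mm9 are named per the submitters' processing notes. Settings, the control in peak calling and read numbers remain not given in the sources used here. Because the lowest score of each list lay between 4.33 and 5.27, near the p-value threshold that MACS uses by default, the deposited score of a peak was read as a −log10 p-value. No file header states the scale.

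Groups came from the sample titles. Peaks of the 5 unsilenced lists were merged at an overlap of 1 bp or more, each region took its highest-scoring peak per list, and overlaps with the silenced lists were counted. Shares carry Clopper-Pearson 95% intervals, and comparing such intervals is not a test. Python 3.11.15, NumPy 2.4.6, pandas 2.3.3, SciPy 1.17.1 and matplotlib 3.10.9 were used. The counting was tested on simulated lists and against bedtools 2.31.1, with equal counts. The members, the site lists and the alternatives were chosen with earlier results of these data known. Sites named were the 10 lost regions of highest score 6 h after hepatectomy, the 5 of highest mean percentile, those with a peak in another silenced list, 5 of lowest score (ties taken in the order of the table), the 5 nearest to a silenced peak, the 5 kept regions of shortest overlap and the 5 kept of highest score. The reference tables were made on GRCm38, and 264 merged regions on 9 chromosomes reach beyond the last gene listed there. No coordinate was converted, so the planned counts of start sites, gene lists and motifs were not run and no sequence is printed. With 1 library per condition there was no test.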

Additional observations from a re-analysis of the deposited data

How the results depend on the processing

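Of 15 alternatives, 2 were chosen after seeing the data: a loss judged against all 3 silenced lists, and peaks of all 5 lists sharing a stretch. The number of lost regions kept within 1.5 times of 325 in 11 of them. It was 203 with a score of at least 10 in the unsilenced lists (13.6% of the constitutive regions), and 178 with as many 6 h hepatectomy peaks as silenced ones (11.1%), where the median score percentile in the shortened list was 43.8 against 82.1 as reported, since the weaker peaks are left out by construction. With the score minimum in the unsilenced lists, or in all 6, the share lost in the highest quintile was 0% against 0.269%, from 1 region. Judged against all 3 silenced lists, the share with a silenced basal peak was 0% by construction. Leaving out 1 library at a time gave 324 to 1027 lost regions, 17.4 to 31.1% of the constitutive ones, and a median percentile of 77.2 to 82.1. The highest number came without the basal library and the next, 488, without the 48 h sham library. Without the 6 h hepatectomy library the percentile and the quintiles could not be computed. The shares with a silenced 48 h peak and with a silenced peak within 1 kb stayed within their intervals in all 15. No paired analysis was possible because each condition has 1 library. The planned motif and start-site alternatives were not run. Unknown depth limits every missing call.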

Other observations

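In 4 places a pair of lost regions lay within 10 kb of each other. On chromosome 5 the regions from 23950691 to 23951299 and from 23953435 to 23953971 were 2135 bp apart, with scores 6 h after hepatectomy of 141.72 and 26.94 and 48 h sham scores of 9.52 and 16.96, in the opposite order. Also on chromosome 5, the regions from 31494874 to 31496608 and from 31504263 to 31505086 scored 75.25 and 63.24 at 6 h after hepatectomy, with silenced peaks 38200 and 47589 bp away. On chromosome 11 the regions from 63727626 to 63728382 and from 63735601 to 63736168 scored 38.97 and 78.31. On chromosome 7 the regions from 39002402 to 39003044 and from 39009934 to 39010398 both scored 13.84, and the nearest silenced peak was 2414148 bp from the first. These pairs were singled out after their values were seen.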
